A study of Homo sapiens with 15 samples.

Results

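Potassium channel genes were examined in RNA-seq libraries of A673, an established Ewing sarcoma cell line driven by the fusion oncoprotein EWS/FLI. The set was defined by name: every gene of the deposited count table whose symbol starts with KCN and has no hyphen, with an average of at least 1 count over the 15 libraries. This gave 81 of the 98 KCN symbols in the table, among 28793 genes that met the same minimum. Of the 81, 80 encode proteins and KCNQ1OT1 is a long noncoding RNA. The name rule used no comparison, but the minimum can admit a gene through the condition in which it is high, so counts over the 81 genes describe these genes and were not tested as a set. The 17 symbols under the minimum had between 0 and 13 counts summed over all libraries, and they include KCNQ1, KCNA4, KCNA5, KCNJ3 and KCNK10.

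Potassium channels conduct K+ across cell membranes and set the resting potential, the shape of the action potential, and the driving force for calcium entry. Voltage-gated alpha subunits (KCNA to KCND, KCNQ and KCNH) form pores that open on depolarization, and the silent alpha subunits (KCNF, KCNG, KCNS and KCNV) join KCNB subunits and alter their gating. KCNJ channels are inward rectifiers, KCNK channels have tandem pore domains and carry background leak currents, KCNMA1 and the KCNN channels open with intracellular calcium, and KCNT channels open with sodium. KCNAB, KCNE, KCNIP and KCNMB proteins are auxiliary subunits that change the trafficking or gating of the pore-forming subunits. EWS/FLI joins the disordered N-terminal domain of EWS to the ETS DNA-binding domain of FLI and binds ETS sites and GGAA microsatellites, which are tandem repeats of the ETS core.

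Endogenous EWS/FLI was depleted in A673 cells and replaced from cDNAs, giving 5 conditions of 3 libraries each. A luciferase shRNA plus an empty vector (iLuc) left endogenous EWS/FLI (endo-EF) in place, and an EWS/FLI shRNA plus an empty vector (iEF) depleted it. The 3 rescue conditions combined the iEF shRNA with a cDNA of wildtype EWS/FLI (WT-EF), the negative control Δ22, which lacks the EWS domain, or DAF, in which tyrosines of the EWS domain are mutated to alanine. Cells were transduced with shRNA on day 1 and with cDNA on day 5 and were kept until day 16 under selection with 2 µg/mL puromycin and 400 µg/mL hygromycin B. All libraries thus come from a single tumour line under drug selection, and nothing in the labels says that libraries of a condition came from separate thaws, so p-values measure the spread between these libraries. In these bulk libraries, fewer cells that express a gene and less of its RNA per cell cannot be told apart.

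Library totals ran from 28659475 to 41859880 counts. Levels are given in CPM, counts scaled to the size of each library and its TMM factor, in the order of libraries 1, 2 and 3, and differences are log2 fold changes ± SE. Libraries with the same number form a replicate set. Where a call printed with its adjusted p on a potassium channel gene did not hold in every alternative analysis that tested it (22 to 26 per call), the libraries (iEF 1), sets or settings without which it was lost are named, with the range of the log2 fold change and the largest adjusted p over the alternatives in parentheses. FLI1, whose counts include the fusion, stood at 48.0, 47.8 and 52.4 CPM in iLuc and 12.9, 15.5 and 15.3 CPM in iEF (log2 fold change 1.77 ± 0.10, adjusted p = 7.93e-09). It stood at 16.0, 18.0 and 18.7 CPM in WT-EF, 24.4, 32.9 and 36.2 CPM in Δ22 and 22.1, 23.6 and 27.3 CPM in DAF, where counts of a cDNA and of the endogenous transcript cannot be told apart. Against iEF, FLI1 gave 0.27 ± 0.10 with WT-EF (adjusted p = 0.0538), 1.09 ± 0.10 with Δ22 (adjusted p = 4.46e-04) and 0.74 ± 0.10 with DAF (adjusted p = 3.35e-04). FLI1 was higher in DAF than in WT-EF (WT-EF against DAF -0.47 ± 0.10, adjusted p = 0.00264), and the part of construct level in the differences between constructs was not tested. Of the Ewing sarcoma markers, EWSR1, NR0B1, NKX2-2, STEAP1 and CCND1 were counted in every library, whereas CD99 was listed at 0 to 3 counts. The cause of the low CD99 counts was not tested, so they are not read as absence of CD99 from these cells. The 5 markers of other lineages that the table holds summed to between 0.322 and 1.73 CPM per library. Among them, EPCAM was at 0.642, 0.842 and 0.985 CPM in iLuc and 0.0788, 0.135 and 0.145 CPM in iEF, and its part in any result was not tested.

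Runs of at least 4 consecutive GGAA repeats on either strand were located in GRCh37 around the annotated start of each gene, because EWS/FLI binds such repeats and members that moved with the constructs differ in how far a run lies from their start. The 6 runs shown belong to KCNE3, KCNH4, KCNS3, KCNN1 and KCNA2, which were called higher with endo-EF, and to KCNMA1, which was called lower. For KCNH4 that call rests on 8 counts over the iLuc libraries and 0 over the iEF libraries. Capitals mark the run, as GGAA where the repeat is on the plus strand and as TTCC where it is on the minus strand, with 20 flanking bases on each side in lower case. All are written 5′ to 3′ on the plus strand, and distances are negative upstream of the start.
KCNE3 (chr11:74179718-74179793, 9 repeats, -964 bases from the start, in an intron of the antisense transcript ENSG00000254631): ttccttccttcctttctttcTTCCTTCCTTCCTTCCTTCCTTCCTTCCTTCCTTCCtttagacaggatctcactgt
KCNH4 (chr17:40335413-40335496, 11 repeats, -2273 bases from the start, intergenic): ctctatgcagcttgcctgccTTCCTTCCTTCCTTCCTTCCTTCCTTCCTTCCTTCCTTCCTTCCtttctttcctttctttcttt
KCNS3 (chr2:18053405-18053484, 10 repeats, -5650 bases from the start, intergenic): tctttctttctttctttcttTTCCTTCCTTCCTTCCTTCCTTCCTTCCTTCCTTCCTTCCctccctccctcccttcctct
KCNN1 (chr19:18076815-18076910, 14 repeats, 14733 bases from the start, in an intron of KCNN1): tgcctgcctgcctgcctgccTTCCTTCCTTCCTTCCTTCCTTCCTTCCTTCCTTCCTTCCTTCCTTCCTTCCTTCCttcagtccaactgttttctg
KCNA2 (chr1:111153622-111153713, 13 repeats, 20403 bases from the start, in an intron of KCNA2): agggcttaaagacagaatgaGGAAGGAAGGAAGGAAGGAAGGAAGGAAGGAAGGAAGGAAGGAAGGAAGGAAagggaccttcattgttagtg
KCNMA1 (chr10:79410255-79410362, 17 repeats, -12148 bases from the start, intergenic): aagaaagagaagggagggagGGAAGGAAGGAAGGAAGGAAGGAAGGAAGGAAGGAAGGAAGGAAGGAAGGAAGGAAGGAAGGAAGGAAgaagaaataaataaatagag

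Within 50000 bases of the start, 30 of the 81 potassium channel genes (37.04%) had such a run, and 33.2% of 27858 genes tested with an annotated start did. Runs were found near 15 of the 29 members that were higher with endo-EF (51.7%), 8 of the 19 that were lower (42.1%) and 7 of the 33 that were not called (21.2%). Within 5000 bases the share was 4 of 81 (4.94%) against 3.63% of all genes, and the 4 genes were KCNE3, KCNH4, KCNU1 and KCNK15. These matches describe the genome sequence and are neither binding data nor a tested enrichment. The longest runs were those of KCNMA1 with 17 repeats, KCNH6, which was not called, with 16, and KCNK3, which was lower with endo-EF, with 15. Among members that were higher, the longest had 14 repeats (KCNE3 and KCNN1). In RefSeq promoters of GRCh38.p14, spanning 250 bases before to 50 after the start, 58 of the 81 genes matched. The motif GGAAGGAA on either strand was in 4 of these (6.90%) and in 3.67% of all promoters, and the ETS motif CCGGAA was in 3 (5.17%) and in 17.2% of all promoters. Members were counted by a single promoter each, whereas all promoters means all 35116 listed, whether or not their gene was expressed here. These shares are thus not like for like, and their differences were not tested. The members with GGAAGGAA were KCNE1, KCNIP1, KCNK6 and KCNMB2.

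**Figure D1:**
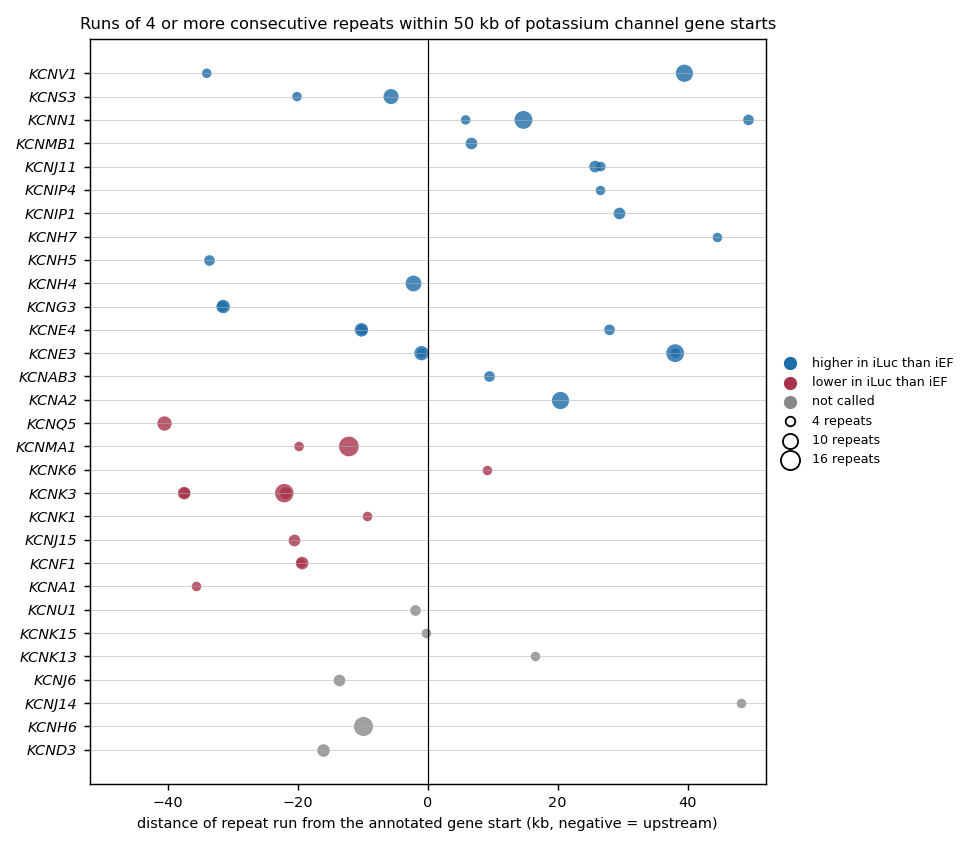
Position of GGAA repeat runs around potassium channel genes. The x axis is the distance of each run from the annotated gene start in kb (negative is upstream), each row is 1 of the 30 genes with a run, the point area scales with the number of repeats, and colour gives the endo-EF call. Blue, red and grey rows number 15, 8 and 7, and the nearest long runs are those of KCNE3 and KCNH4.

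With endo-EF present, 29 of the 81 potassium channel genes were higher than in iEF and 19 were lower at an adjusted p under 0.05 (edgeR, Benjamini-Hochberg over all genes tested), beside 19.5% and 22.1% of all genes. WT-EF gave 23 higher and 15 lower (12.9% and 17.0% of all genes), DAF 13 higher and 5 lower (5.00% and 6.19%) and Δ22 2 higher and 0 lower (0.472% and 0.830%). The median log2 fold change over the 81 genes was 0.14 for endo-EF, 0.52 for WT-EF, 0.27 for Δ22 and 0.24 for DAF, and over all genes tested it lay between -0.01 and 0.04. For Δ22 with edgeR, 13 members had an unadjusted p under 0.05, and DESeq2 called 1 member lower. The 4 comparisons share the iEF libraries, so their values are given side by side and were not used to support each other. Without replicate set 1 of all conditions, 15 members were higher with WT-EF, and 8 were higher with DAF without set 2 or when iEF 3, DAF 2 or DAF 3 alone was left out. The 5 lower calls with DAF became 1 without set 1 or set 2 and 3 without DAF 1 or DAF 2. The 2 calls with Δ22 became 0 without any 1 of the iEF libraries, without Δ22 2 or Δ22 3, or without set 1 or set 2.

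Calls were also counted by subfamily, and differences between subfamilies were not tested. Beside 19.5% of all genes higher and 22.1% lower with endo-EF, the subfamilies gave the following. Of 8 KCNH genes, 5 were higher and 1 lower with endo-EF. Of 17 auxiliary subunits, a list that also held KCNRG, 7 were higher and 4 lower. The 9 silent alpha subunits had 4 higher and 1 lower. Of 11 tandem-pore KCNK genes, 1 was higher and 5 were lower, with a median log2 fold change of -2.19 over the 11. KCNA to KCND genes had 4 higher and 2 lower of 12, KCNJ genes 2 and 3 of 11, and KCNQ genes 2 and 1 of 4. The calcium- or sodium-activated channels, a list that also held KCNU1, had 4 higher and 2 lower of 8. With WT-EF, beside 12.9% of all genes higher and 17.0% lower, the same subfamily lists gave 4 higher and 1 lower for KCNH, 2 and 5 for KCNK, and 6 and 1 for the auxiliary subunits. The silent alpha subunits had 3 higher and 1 lower with WT-EF, KCNA to KCND genes 3 and 2, and KCNQ genes 2 and 1. KCNJ genes had 1 and 1, and the calcium- or sodium-activated channels 2 and 2.

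**Figure D2:**
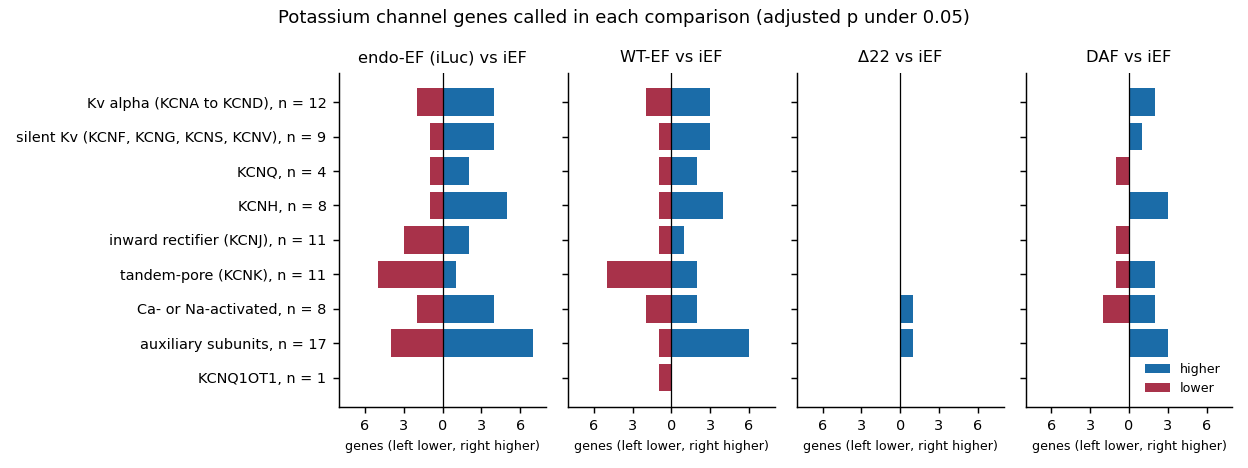
Number of potassium channel genes called in each subfamily against iEF. Bars to the right of 0 count genes that were higher and bars to the left genes that were lower at an adjusted p under 0.05, and n is the number of members of each subfamily. For endo-EF the KCNH row shows 5 higher and 1 lower and the tandem-pore row 1 higher and 5 lower, and the Δ22 panel holds 2 genes.

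Expression was concentrated in few members. The 81 genes together summed to between 401 and 555 CPM per library, and KCNE4 alone made up 15.7% to 50.2% of that sum. Of the 81, 27 averaged at least 50 counts and 32 averaged under 10. Per kb of exon, KCNE4 had the highest level of all members in each condition, at 43.5 ± 4.38 CPM per kb in iLuc (mean ± SD, n = 3), 21.9 ± 6.14 in iEF and 62.0 ± 10.8 in DAF. Length is the union of all annotated exons of a gene, 3.75 kb for KCNE4 and 39.4 kb for KCNMA1, so ranks per kb depend on the annotation. Without division by length, KCNMA1 was above KCNE4 in iEF libraries 1 and 3 and below it in library 2. KCNE3 followed in iLuc (24.0 ± 6.53 CPM per kb) and in WT-EF (26.9 ± 2.33), whereas in iEF KCNQ5 (6.15 ± 1.11) stood above KCNE3 (4.91 ± 1.96) by less than the larger of their SDs. In iLuc, KCNS3 (6.48 ± 1.61 CPM per kb) and KCNN1 (6.40 ± 0.311) also did not differ beyond their spread. KCNN4 had a level per kb of 4.90 ± 0.476 CPM in iEF against 0.0504 ± 0.0202 CPM in iLuc, where it was not among the 10 highest members.

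KCNH channels held the largest increase with endo-EF among members averaging at least 50 counts. KCNH5 (ENSG00000140015, chr14:63166182-63568755), an ether-à-go-go voltage-gated channel, was at 15.9, 16.7 and 15.8 CPM in iLuc and 0.315, 0.742 and 0.145 CPM in iEF. It returned to 15.6, 12.6 and 20.3 CPM in WT-EF, and was at 0.264, 1.07 and 0.643 CPM in Δ22 and 0.773, 1.69 and 1.54 CPM in DAF. The iLuc and WT-EF libraries overlapped each other and stood above every library of the other conditions. KCNH5 was thus higher with endo-EF (log2 fold change 5.39 ± 0.42, adjusted p = 1.19e-07) and with WT-EF (5.41 ± 0.42, adjusted p = 4.50e-07). It was also higher with DAF (1.76 ± 0.46, adjusted p = 0.0216), and WT-EF exceeded DAF by 3.65 ± 0.36 (adjusted p = 7.64e-06). The DAF call on KCNH5 was lost without iEF 1 or 3, DAF 2 or 3 or set 1 or 3 (0.89 to 2.40, largest adjusted p 0.112).

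KCNH2, the HERG channel of cardiac repolarization, rose from 0.368, 0.607 and 0.727 CPM in iEF to 2.63, 4.18 and 1.64 CPM in iLuc (log2 fold change 2.34 ± 0.38, adjusted p = 1.43e-04) and 1.22, 1.64 and 2.98 CPM in WT-EF (1.77 ± 0.38, adjusted p = 0.00244). KCNH3, a brain-expressed member, was at 3.24, 3.70 and 3.76 CPM in iLuc, 0.631, 0.708 and 0.640 CPM in iEF, 1.83, 1.45 and 2.32 CPM in WT-EF and 0.633, 0.686 and 0.704 CPM in DAF. Every iLuc library exceeded every WT-EF library, and DAF overlapped iEF. KCNH3 was higher with WT-EF than with DAF (1.46 ± 0.23, adjusted p = 2.59e-04), whereas the difference for KCNH2 was 0.32 ± 0.35 (adjusted p = 0.570). DAF against iEF gave 1.45 ± 0.39 for KCNH2 (adjusted p = 0.0255), a call lost without iEF 1, 2 or 3, DAF 1, 2 or 3 or set 1 or 2, and in the fit with no replicate block (1.20 to 1.64, largest adjusted p 0.218). KCNH4 had 0 counts in all iEF libraries, 8 counts over the iLuc libraries, 0.211, 0.475 and 0.369 CPM in DAF and 0.305, 0.344 and 0.213 CPM in WT-EF. DAF and WT-EF were at least 3.95-fold and 3.22-fold higher against a floor of 3 counts per library. The iLuc counts gave no bound above 1 against this floor (0.869), although KCNH4 was called higher with endo-EF.

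KCNH1 went the other way within the same subfamily. This ether-à-go-go channel, often expressed in tumours, was at 4.02, 3.20 and 3.23 CPM in iEF and had 1 count in the 3 iLuc libraries together, a ratio of 358 (95% exact interval 63.9 to 14187, counting error only). WT-EF stood between at 0.914, 0.608 and 0.0533 CPM (against iEF -2.83 ± 0.42, adjusted p = 1.26e-04), and Δ22 (6.92, 3.57 and 4.97 CPM) and DAF (3.76, 2.08 and 2.15 CPM) were not called against iEF. WT-EF library 3 was far below the other WT-EF libraries for this gene.

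**Figure D3:**
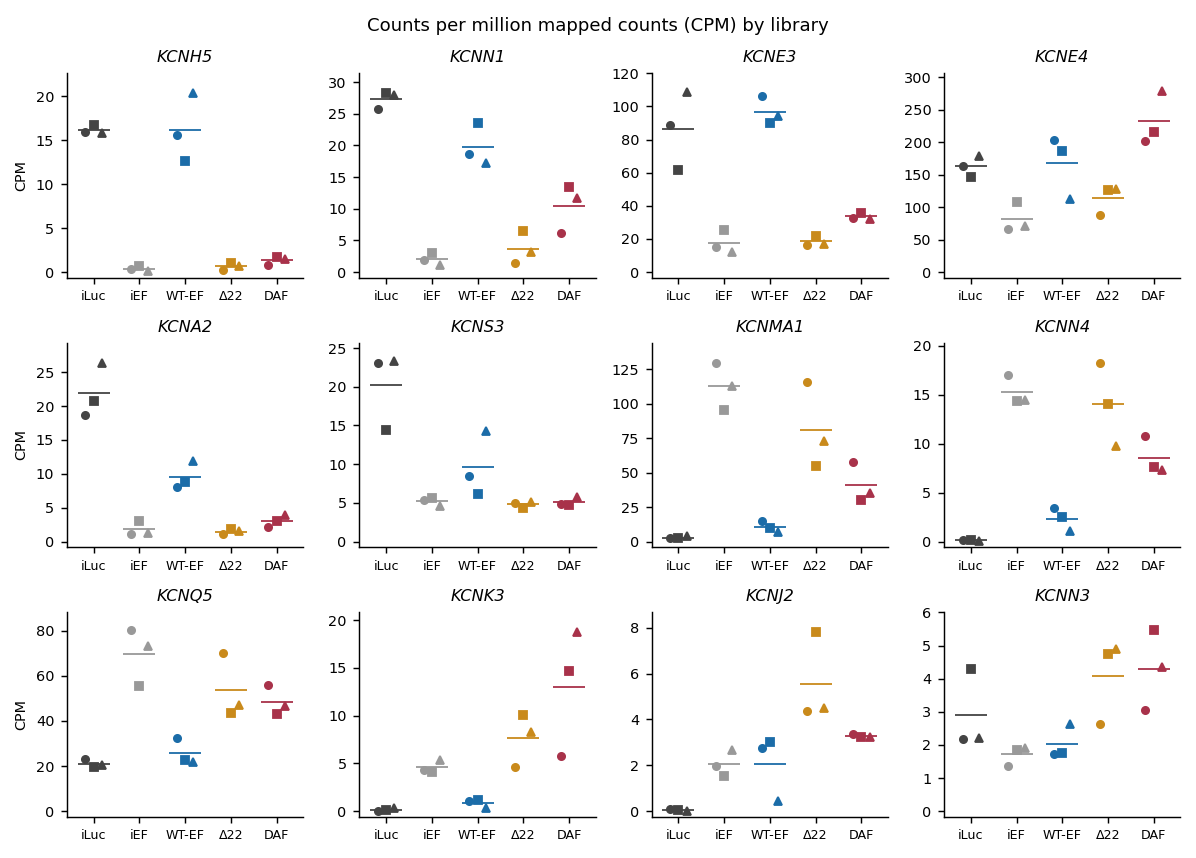
Level of 12 potassium channel genes in each library. The y axis of each panel is CPM from 0, circles, squares and triangles are libraries 1, 2 and 3, and the line is the mean of 3 libraries. KCNH5 in WT-EF returns to the iLuc range, KCNMA1 and KCNN4 are highest in iEF and Δ22, and KCNK3 is highest in DAF libraries 2 and 3.

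Among calcium-activated channels, KCNN1 rose with endo-EF and WT-EF while KCNMA1 and KCNN4 fell. KCNN1 (ENSG00000105642, chr19:18062102-18110894) was at 25.8, 28.2 and 27.9 CPM in iLuc, 1.97, 3.07 and 1.05 CPM in iEF and 18.6, 23.5 and 17.2 CPM in WT-EF. DAF held it at 6.12, 13.5 and 11.7 CPM and Δ22 at 1.49, 6.41 and 3.18 CPM. Levels ran in the order iLuc, WT-EF, DAF, Δ22 and iEF, with overlap between DAF and Δ22 and between Δ22 and iEF. It rose with endo-EF (log2 fold change 3.82 ± 0.34, adjusted p = 4.88e-07), WT-EF (3.33 ± 0.34, adjusted p = 4.14e-06) and DAF (2.36 ± 0.34, adjusted p = 4.51e-04), and Δ22 gave 0.80 ± 0.34 (adjusted p = 0.317). DAF exceeded Δ22 by 1.57 ± 0.32 (adjusted p = 0.0248), a call lost without Δ22 1 or 3, DAF 2 or 3 or set 1 or 2, and in the fit with no replicate block (1.16 to 1.99, largest adjusted p 0.172). The run of 14 repeats shown for KCNN1 lies in its own intron.

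KCNMA1 (ENSG00000156113, chr10:78629359-79398127), the pore of the large-conductance BK channel, was at 129.9, 95.2 and 113 CPM in iEF and 2.45, 2.75 and 3.73 CPM in iLuc. It was at 15.01, 10.01 and 7.08 CPM in WT-EF and 57.6, 29.99 and 35.1 CPM in DAF, and Δ22 libraries were at 116, 54.8 and 72.8 CPM. The DAF and WT-EF libraries overlapped neither iEF nor each other. The log2 fold changes against iEF were -5.21 ± 0.26 for endo-EF (adjusted p = 2.08e-09), -3.43 ± 0.23 for WT-EF (adjusted p = 1.46e-07) and -1.51 ± 0.21 for DAF (adjusted p = 3.92e-04). WT-EF was lower than DAF (-1.92 ± 0.22, adjusted p = 2.04e-05) and above iLuc by 1.78 ± 0.24 (adjusted p = 1.58e-04), the latter lost with DESeq2 on ComBat-adjusted counts (0.92 to 2.24, largest adjusted p 0.0571). DAF fell below Δ22 (-0.98 ± 0.21, adjusted p = 0.0309), which was lost without iEF 1, Δ22 1 or 3, DAF 1, 2 or 3 or set 1 or 2, and with DESeq2 on ComBat-adjusted counts and in the fit with no replicate block (-1.12 to -0.84, largest adjusted p 0.310).

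KCNN4, the intermediate-conductance channel best known from T cells and red cells, was ordered across the conditions like KCNMA1. It was at 17.03, 14.4 and 14.5 CPM in iEF, 18.3, 14.1 and 9.79 CPM in Δ22, 10.8, 7.60 and 7.28 CPM in DAF, 3.46, 2.51 and 1.07 CPM in WT-EF and 0.214, 0.168 and 0.0896 CPM in iLuc. All iLuc libraries were below all WT-EF libraries, and these below all DAF libraries. It fell with endo-EF (-6.62 ± 0.31, adjusted p = 1.38e-09) and WT-EF (-2.80 ± 0.22, adjusted p = 4.73e-07), and WT-EF stayed 3.82 ± 0.33 above iLuc (adjusted p = 4.48e-06). The smaller DAF change of -0.87 ± 0.20 (adjusted p = 0.0116) was lost without iEF 3, DAF 1 or 2 or set 1 or 2, and in the fit with no replicate block (-1.01 to -0.63, largest adjusted p 0.154).

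KCNN3, another small-conductance channel, was among the 2 members called with Δ22. It was at 1.37, 1.85 and 1.92 CPM in iEF, 2.64, 4.75 and 4.90 CPM in Δ22, 3.06, 5.46 and 4.36 CPM in DAF, 1.72, 1.77 and 2.64 CPM in WT-EF and 2.17, 4.29 and 2.21 CPM in iLuc. All Δ22 and DAF libraries were above all iEF libraries. The log2 fold change was 1.30 ± 0.24 for DAF (adjusted p = 0.00300) and 1.22 ± 0.24 for Δ22 (adjusted p = 0.0211), and the Δ22 call was lost without iEF 1, 2 or 3, Δ22 2 or 3 or set 1 or 2, and in the fit with no replicate block (1.10 to 1.36, largest adjusted p 0.277). WT-EF gave 0.26 ± 0.25 (adjusted p = 0.486) and was lower than DAF (-1.04 ± 0.24, adjusted p = 0.00399), which was lost without set 2 (-1.24 to -0.78, largest adjusted p 0.0697). The sodium-activated channel genes KCNT1 (1.66 ± 0.41, adjusted p = 0.00438) and KCNT2 (2.56 ± 0.65, adjusted p = 0.00517) rose with endo-EF, each from under 0.5 CPM in every iEF library, and the KCNT1 call was lost without set 1 (1.41 to 1.89, largest adjusted p 0.0626).

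The auxiliary subunits KCNE4 and KCNE3 had the highest levels per kb in iLuc, WT-EF and DAF. KCNE4 (ENSG00000152049, chr2:223916908-224063117), a single-pass subunit that inhibits KCNQ1 and some KCNA channels, was at 164, 146 and 179 CPM in iLuc, 66.5, 109 and 71.5 CPM in iEF and 203, 187 and 113 CPM in WT-EF. It reached 202, 216 and 278 CPM in DAF and 88.5, 126 and 128 CPM in Δ22. Every DAF library exceeded every iLuc, iEF and Δ22 library, and WT-EF overlapped DAF through library 1. KCNE4 was higher with DAF by 1.51 ± 0.22 (adjusted p = 6.01e-04), with endo-EF by 1.01 ± 0.22 (adjusted p = 0.00183) and with WT-EF by 1.05 ± 0.22 (adjusted p = 0.00213), the last lost without set 1 (0.74 to 1.32, largest adjusted p 0.0598). WT-EF against DAF was -0.46 ± 0.22 (adjusted p = 0.140). DAF exceeded Δ22 by 1.03 ± 0.22 (adjusted p = 0.0322), which was lost without WT-EF 2, Δ22 1, 2 or 3, DAF 1, 2 or 3 or set 1 or 2, and in the fit with no replicate block (0.84 to 1.17, largest adjusted p 0.240).

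KCNE3 (ENSG00000175538, chr11:74165886-74178774), a subunit that holds KCNQ1 open in epithelia, was at 88.6, 61.7 and 108 CPM in iLuc, 15.2, 25.6 and 12.2 CPM in iEF and 106, 89.8 and 94.3 CPM in WT-EF. DAF brought it to 32.9, 35.6 and 32.3 CPM, and Δ22 was at 16.5, 22.1 and 16.9 CPM. The iLuc and WT-EF libraries overlapped, and every DAF library lay below them and above iEF and Δ22. The increase was 2.32 ± 0.24 with endo-EF (adjusted p = 2.17e-06) and 2.48 ± 0.24 with WT-EF (adjusted p = 2.97e-06). With DAF it was 0.95 ± 0.23 (adjusted p = 0.0173), a call lost without iEF 1 or 3, DAF 1, 2 or 3 or set 1 (0.72 to 1.32, largest adjusted p 0.184). WT-EF exceeded DAF by 1.53 ± 0.23 (adjusted p = 1.95e-04). KCNE3 lies wholly within an antisense noncoding gene, and its run of 9 repeats is the nearest to a start among those shown.

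Of the cytoplasmic beta subunits of KCNA channels, KCNAB3 was at 7.18, 7.18 and 6.98 CPM in iLuc, 0.420, 0.674 and 0.582 CPM in iEF, 1.16, 1.98 and 4.02 CPM in WT-EF and 0.633, 0.607 and 0.469 CPM in DAF. It rose with endo-EF (3.70 ± 0.34, adjusted p = 5.45e-07) and WT-EF (2.04 ± 0.34, adjusted p = 3.25e-04), and WT-EF was higher than DAF (1.98 ± 0.34, adjusted p = 5.32e-04). DAF and iEF overlapped. KCNAB3 shares 3926 bases with a protein-coding gene on its own strand, so its counts are uncertain. KCNAB1 changed less, from 2.58, 2.60 and 2.44 CPM in iEF to 4.80, 4.35 and 4.12 CPM in iLuc (0.80 ± 0.21, adjusted p = 0.00574), which was lost without set 1 (0.68 to 0.93, largest adjusted p 0.0608). The calcium-binding subunit KCNIP4 differed by 0.53 ± 0.20 with endo-EF (adjusted p = 0.0422), lost without iLuc 1 or 3, iEF 1, 2 or 3, WT-EF 2, Δ22 1, 2 or 3, DAF 1 or set 1, 2 or 3, and with no filter on low counts and in the fit with no replicate block (0.35 to 0.61, largest adjusted p 0.222).

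Of the beta subunits of the BK channel, KCNMB4 was at 6.39, 6.84 and 7.22 CPM in iLuc, 7.44, 13.1 and 10.4 CPM in iEF and 9.44, 21.5 and 16.8 CPM in WT-EF. WT-EF was higher than iLuc in every replicate set (1.15 ± 0.19, adjusted p = 6.47e-04). Against iEF it was lower with endo-EF (-0.55 ± 0.19, adjusted p = 0.0302) and higher with WT-EF (0.61 ± 0.18, adjusted p = 0.0215), and the libraries of WT-EF and iEF overlapped. The first of these calls was lost without iLuc 2, iEF 2 or 3 or set 2, and in the fit with no replicate block (-0.72 to -0.34, largest adjusted p 0.278), and the other without iEF 1 or 2, WT-EF 2 or 3 or set 2, and in the fit with no replicate block (0.49 to 0.80, largest adjusted p 0.144).

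KCNMB2, a rarer inactivating beta subunit, was at 1.83, 1.24 and 1.58 CPM in DAF, 0.762, 0.626 and 1.36 CPM in Δ22, 0.236, 0.304 and 0.204 CPM in iEF, 0.222, 0.185 and 0.213 CPM in WT-EF and 0.0306, 0.112 and 0.0299 CPM in iLuc. Every DAF and Δ22 library was above every library of the other conditions. It was higher with DAF (2.63 ± 0.37, adjusted p = 4.57e-04), and DAF exceeded WT-EF (WT-EF against DAF -2.88 ± 0.38, adjusted p = 6.18e-05). The Δ22 change of 1.84 ± 0.39 (adjusted p = 0.0312) was lost without iEF 1, 2 or 3, Δ22 2 or 3, DAF 2 or set 1, 2 or 3, and in a fit of only the 6 libraries compared (1.36 to 2.22, largest adjusted p 0.234). KCNMB2 averaged 19.2 counts and overlaps the antisense gene KCNMB2-AS1 over 317925 bases. KCNIP3, a calcium-binding protein also known as a transcriptional repressor, fell from 1.16, 1.48 and 1.16 CPM in iEF to 0.0611, 0.0561 and 0.0896 CPM in iLuc (-4.16 ± 0.45, adjusted p = 2.67e-06) and 0.388, 0.211 and 0.426 CPM in WT-EF (-1.91 ± 0.34, adjusted p = 5.65e-04).

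Of the voltage-gated KCNA to KCND genes, KCNA2 (ENSG00000177301, chr1:111062459-111174096), a delayed rectifier of axons, had the highest level per kb in iLuc. It was at 18.6, 20.8 and 26.4 CPM in iLuc, 1.05, 3.10 and 1.34 CPM in iEF, 8.03, 8.83 and 11.9 CPM in WT-EF, 1.11, 1.80 and 1.50 CPM in Δ22 and 2.11, 3.01 and 3.92 CPM in DAF. WT-EF libraries stood between iLuc and the other conditions without overlap. KCNA2 rose with endo-EF (3.64 ± 0.27, adjusted p = 8.56e-08) and WT-EF (2.44 ± 0.27, adjusted p = 7.79e-06), and DAF gave 0.75 ± 0.27 (adjusted p = 0.101). WT-EF was below iLuc (-1.20 ± 0.24, adjusted p = 0.00266) and above DAF (1.69 ± 0.25, adjusted p = 1.80e-04). The call against iLuc was lost without set 1 (-1.35 to -1.03, largest adjusted p 0.0603).

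Rarer members of this group moved in both directions. KCND1, which carries transient A-type current, was at 0.526, 0.776 and 0.407 CPM in iEF, 1.31, 1.57 and 1.07 CPM in iLuc and 1.34, 1.53 and 1.54 CPM in DAF. It rose with endo-EF (1.22 ± 0.28, adjusted p = 0.00277) and DAF (1.38 ± 0.28, adjusted p = 0.00576), the latter lost without set 1 (1.16 to 1.61, largest adjusted p 0.0642). KCNC4, a fast-deactivating channel, was lower in iLuc (0.306, 0.421 and 0.418 CPM) and WT-EF (0.637, 0.396 and 0.186 CPM) than in iEF (1.16, 0.944 and 1.51 CPM), and was at 1.90, 1.90 and 2.25 CPM in DAF. Its log2 fold changes were -1.65 ± 0.38 with endo-EF (adjusted p = 0.00254) and -2.29 ± 0.36 for WT-EF against DAF (adjusted p = 2.80e-04).

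The silent subunits KCNS3 and KCNG3 rose with endo-EF, and KCNF1 fell. KCNS3 (ENSG00000170745, chr2:18059114-18542882) was at 23.1, 14.4 and 23.3 CPM in iLuc, 5.39, 5.60 and 4.57 CPM in iEF, 8.45, 6.13 and 14.2 CPM in WT-EF and 4.89, 4.70 and 5.70 CPM in DAF. All iLuc libraries were above all WT-EF libraries, which were above all iEF libraries. The change was 1.93 ± 0.22 with endo-EF (adjusted p = 4.74e-06) and 0.83 ± 0.22 with WT-EF (adjusted p = 0.00937), and the latter was lost without iEF 3, WT-EF 3 or set 1 or 3 (0.39 to 1.16, largest adjusted p 0.164). KCNG3 rose by 2.16 ± 0.20 with endo-EF (adjusted p = 7.11e-07) and by 1.02 ± 0.21 with WT-EF (adjusted p = 0.00149), and WT-EF remained below iLuc (-1.14 ± 0.19, adjusted p = 7.00e-04).

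KCNF1 was at 2.63, 1.32 and 2.65 CPM in iEF, 0.0306, 0.281 and 0.239 CPM in iLuc, 0.637, 0.423 and 0.426 CPM in WT-EF and 4.01, 3.98 and 4.69 CPM in DAF. Per kb of exon, Δ22 was at 1.45 ± 0.382 CPM (mean ± SD, n = 3), beside 0.958 ± 0.333 in iEF and 1.84 ± 0.176 in DAF. Neither Δ22 nor DAF was called against iEF for KCNF1. Every WT-EF library was lower than every iEF and DAF library, and the difference between WT-EF and DAF was -3.10 ± 0.38 (adjusted p = 3.60e-05). Against iEF the change was -3.51 ± 0.45 with endo-EF (adjusted p = 1.58e-05) and -2.14 ± 0.38 with WT-EF (adjusted p = 6.05e-04). KCNV1, a silent subunit with an average of 22.5 counts, rose with endo-EF (3.97 ± 0.37, adjusted p = 6.32e-07), WT-EF (2.92 ± 0.39, adjusted p = 4.44e-05) and DAF (2.44 ± 0.41, adjusted p = 0.00145). The DAF call on KCNV1 was lost without set 2 (1.98 to 2.70, largest adjusted p 0.0529). KCNG1 gave 0.79 ± 0.27 with endo-EF (adjusted p = 0.0299), lost without iLuc 1 or 2, iEF 1 or 2 or set 1 or 2 (0.44 to 1.18, largest adjusted p 0.303).

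Of the 4 KCNQ genes, a subfamily that carries the M-current of neurons, 2 were higher and 1 was lower with endo-EF and likewise with WT-EF. The lower member was KCNQ5, which also fell with DAF. KCNQ5 (ENSG00000185760, chr6:73331520-73908576) was at 80.1, 55.7 and 73.0 CPM in iEF, 22.9, 19.7 and 20.4 CPM in iLuc, 32.4, 22.6 and 21.8 CPM in WT-EF, 56.1, 43.0 and 46.5 CPM in DAF and 70.2, 43.3 and 47.2 CPM in Δ22. WT-EF overlapped iLuc and lay below every DAF, Δ22 and iEF library. The log2 fold change against iEF was -1.71 ± 0.11 for endo-EF (adjusted p = 2.16e-08), -1.45 ± 0.11 for WT-EF (adjusted p = 3.57e-07) and -0.52 ± 0.11 for DAF (adjusted p = 0.00596). The DAF call was lost without set 1 or 2, and in the fit with no replicate block (-0.59 to -0.41, largest adjusted p 0.117). WT-EF was lower than DAF (-0.93 ± 0.11, adjusted p = 2.41e-05), and WT-EF against iLuc was 0.26 ± 0.11 (adjusted p = 0.111).

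KCNQ1OT1, the imprinted noncoding RNA transcribed antisense within KCNQ1, was at 32.1, 18.1 and 25.5 CPM in WT-EF, 36.7, 42.1 and 37.8 CPM in iEF and 55.6, 34.1 and 37.8 CPM in DAF. It was lower with WT-EF than in iEF (-0.65 ± 0.17, adjusted p = 0.0107), lost without iEF 2, WT-EF 2 or set 2 (-0.87 to -0.39, largest adjusted p 0.102). WT-EF against DAF gave -0.75 ± 0.17 for it (adjusted p = 0.00466). The strand setting of the counting is not given in the sources used here, so sense and antisense reads of this locus cannot be told apart.

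Of the inward rectifiers, KCNJ2 (ENSG00000123700, chr17:68164814-68176185), which holds the resting potential of muscle, was at 1.97, 1.52 and 2.65 CPM in iEF and 0.0917, 0.0561 and 0 CPM in iLuc. WT-EF was at 2.74, 3.01 and 0.453 CPM, DAF at 3.37, 3.22 and 3.22 CPM and Δ22 at 4.37, 7.80 and 4.50 CPM. The iLuc libraries were below all others, and WT-EF library 3 stood apart from WT-EF libraries 1 and 2. KCNJ2 fell with endo-EF (-5.36 ± 0.77, adjusted p = 4.56e-05), whereas WT-EF against iEF was -0.13 ± 0.47 (adjusted p = 0.883) and WT-EF exceeded iLuc by 5.23 ± 0.77 (adjusted p = 2.91e-04). KCNJ12, a strong rectifier whose reads are uncertain because the near-identical KCNJ18 shares its sequence, was likewise higher in WT-EF than in iLuc (1.65 ± 0.29, adjusted p = 0.00116). KCNJ12 with endo-EF gave -0.88 ± 0.29 (adjusted p = 0.0257), lost without iLuc 3, iEF 2 or 3 or set 1 or 3 (-1.15 to -0.56, largest adjusted p 0.118).

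KCNJ4, KCNJ11 and KCNJ15 were rarer. KCNJ4, a strong rectifier of neurons, was at 1.19, 1.15 and 0.955 CPM in iLuc and 0, 0.0674 and 0.145 CPM in iEF (4.05 ± 0.69, adjusted p = 2.33e-04). KCNJ11, the pore of the ATP-sensitive channel, had 44 counts in iLuc and 3 in iEF, a ratio of 14.7 (95% exact interval 4.71 to 74.0). KCNJ15 had 0 counts in all iLuc libraries and 0.709, 0.337 and 0.320 CPM in iEF, at least 5.15-fold higher.

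Of the 11 tandem-pore channel genes, 5 were lower with endo-EF, 1 was higher and 5 were not called. KCNK3 (ENSG00000171303, chr2:26915590-26956288), an acid-sensitive leak channel, was at 4.31, 4.05 and 5.38 CPM in iEF, 0.0306, 0.140 and 0.328 CPM in iLuc and 1.02, 1.22 and 0.320 CPM in WT-EF. It reached 5.73, 14.7 and 18.7 CPM in DAF and 4.57, 10.1 and 8.29 CPM in Δ22. Every iLuc and WT-EF library was lower than every iEF library, and every DAF library was higher than every iEF library. It fell with endo-EF (-4.83 ± 0.57, adjusted p = 7.19e-06) and WT-EF (-2.42 ± 0.45, adjusted p = 7.81e-04), and rose with DAF (1.39 ± 0.39, adjusted p = 0.0336). The DAF call was lost without iEF 2 or 3, DAF 2 or 3 or set 2, and with DESeq2 and in the fit with no replicate block (1.05 to 1.84, largest adjusted p 0.331). WT-EF against DAF was -3.81 ± 0.45 (adjusted p = 2.95e-05), higher in DAF in 3 of 3 replicate sets.

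KCNK9 (ENSG00000169427, chr8:140613081-140716352), a closely related acid-sensitive channel, was at 9.25, 7.12 and 5.50 CPM in iEF and 0.581, 0.757 and 0.418 CPM in iLuc (-3.66 ± 0.28, adjusted p = 8.99e-08). WT-EF was at 6.06, 6.47 and 1.68 CPM and DAF at 6.15, 5.43 and 3.09 CPM, and WT-EF exceeded iLuc by 2.90 ± 0.28 (adjusted p = 9.62e-06). WT-EF against iEF gave -0.76 ± 0.23 (adjusted p = 0.0207), lost without iEF 1 or 3, WT-EF 3 or set 1 or 3, and with DESeq2 on ComBat-adjusted counts, in the fit with no replicate block and in a fit of only the 6 libraries compared (-1.10 to -0.38, largest adjusted p 0.314). WT-EF library 3 was the lowest of its group for KCNK9, as for KCNH1, KCNJ2 and KCNN4 among others. The same library was the highest of its group for other members, among them KCNH5, KCNH2, KCNH3, KCNAB3 and KCNS3.

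KCNK6 was at 1.87, 1.11 and 2.04 CPM in iEF, 0.122, 0.252 and 0.149 CPM in iLuc, 0.222, 0.185 and 0.160 CPM in WT-EF and 1.48, 1.71 and 1.68 CPM in DAF. Here WT-EF and iLuc overlapped, and DAF overlapped iEF. It fell with endo-EF (-3.21 ± 0.33, adjusted p = 1.68e-06) and WT-EF (-3.12 ± 0.32, adjusted p = 4.24e-06), and WT-EF was below DAF (-3.09 ± 0.32, adjusted p = 1.00e-05). KCNK2, a mechanosensitive leak channel, and KCNK1 had 0 counts in all iLuc libraries and were at least 5.13-fold and 2.96-fold higher in iEF. KCNK13 rose with DAF (2.41 ± 0.51, adjusted p = 0.00698), from 0.184, 0.236 and 0.262 CPM in iEF to 1.48, 1.32 and 0.939 CPM, which was lost without iEF 1 or set 1 or 2 (2.14 to 2.86, largest adjusted p 0.0830). KCNK18 was the tandem-pore gene that was higher with endo-EF, with 32 counts in iLuc and 1 in iEF (ratio 32.1, 95% exact interval 5.36 to 1306).

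**Figure D4:**
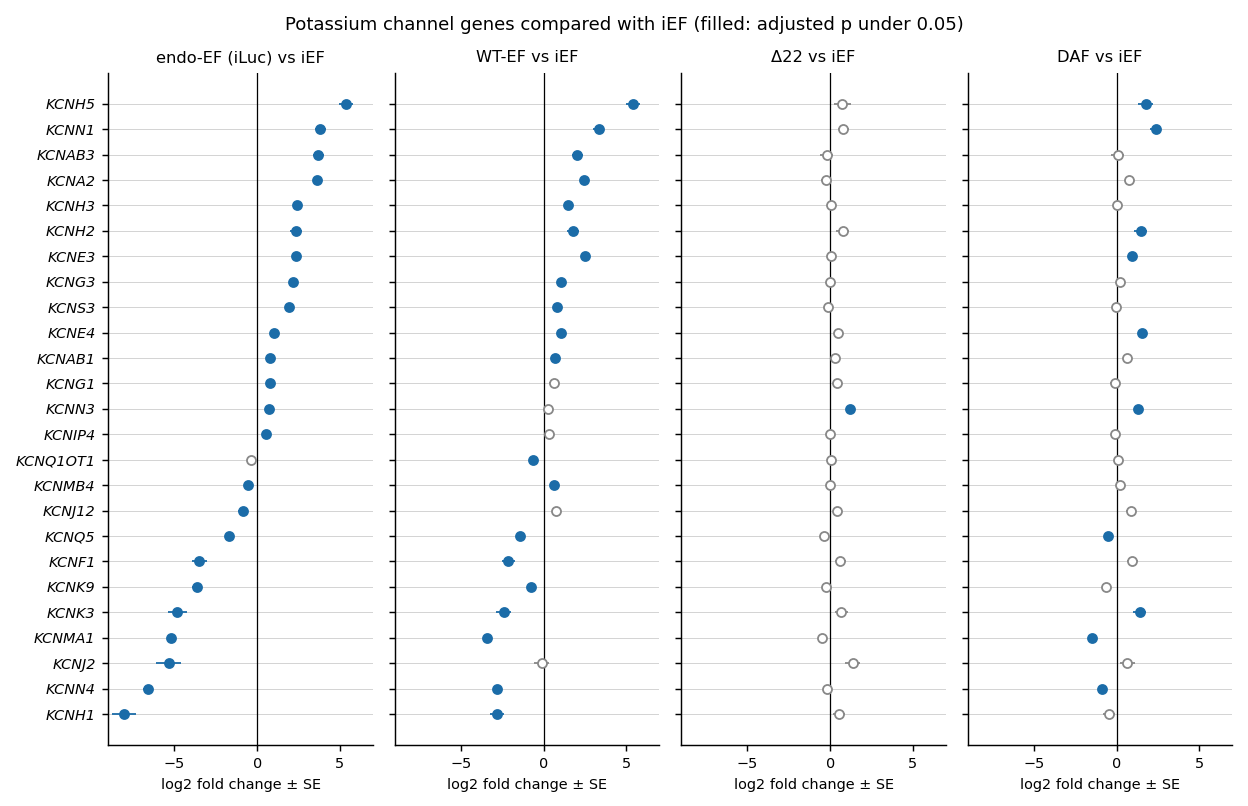
Log2 fold change of 25 potassium channel genes against iEF. Points are estimates of the fit, bars are SE, filled points have an adjusted p under 0.05, and genes are ordered by the endo-EF value from KCNH1 at the bottom to KCNH5 at the top. KCNN3 is the filled point in the Δ22 panel, and KCNK3 lies left of 0 for endo-EF and WT-EF and right of 0 for DAF.

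Direct comparisons between constructs asked where WT-EF differed from the endogenous protein and from the mutant. WT-EF against iLuc gave 12 members higher and 9 lower, beside 10.7% and 9.03% of all genes, with a median of 0.07 over the 81. Those averaging at least 50 counts that were higher in WT-EF were KCNH1, KCNJ2, KCNN4, KCNK9, KCNK3, KCNMA1, KCNJ12 and KCNMB4, and those lower were KCNAB3, KCNA2, KCNG3, KCNS3 and KCNH3. This comparison shares the iLuc libraries with the endo-EF comparison. The lower calls fell from 9 to 3 without replicate set 1 and to 4 without set 2.

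WT-EF against DAF gave 12 higher and 16 lower, beside 12.4% and 16.1% of all genes. KCNH5 (3.65), KCNAB3 (1.98), KCNA2 (1.69) and KCNE3 (1.53) had the largest log2 differences among members averaging at least 50 counts that were higher in WT-EF. KCNK3 (-3.81), KCNF1 (-3.10) and KCNH1 (-2.39) had the largest among those lower. KCNN1 was also higher with WT-EF than with DAF (0.97 ± 0.30, adjusted p = 0.0252), lost without WT-EF 1, DAF 1 or 2 or set 1 or 2, and in the fit with no replicate block (0.66 to 1.20, largest adjusted p 0.145). Without replicate set 2, 7 members were higher instead of 12. DAF against Δ22 gave 2 higher (KCNN1 and KCNE4) and 1 lower (KCNMA1), beside 0.948% and 0.379% of all genes, and 16 members had an unadjusted p under 0.05.

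**Figure D5:**
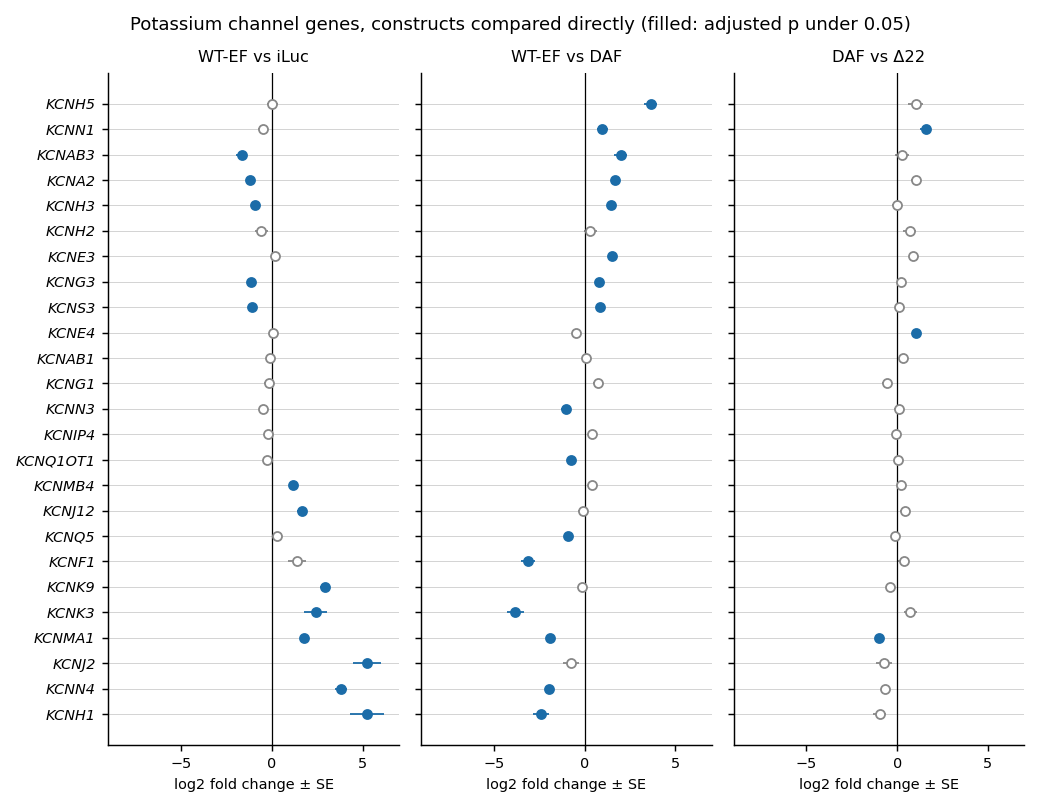
Log2 fold change of the same 25 genes between constructs. Points are estimates, bars are SE and filled points have an adjusted p under 0.05, in the order of the endo-EF change. In the WT-EF against iLuc panel 8 filled points lie right of 0 and 5 left of it, and the DAF against Δ22 panel has 3 filled points.

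Other genes that handle K+ were counted from a list of 43 pumps, cotransporters, HCN channels and channel partners, 33 of which were tested. With endo-EF 10 were higher and 14 lower, with WT-EF 7 and 9, with DAF 4 and 3, and with Δ22 0 and 0, beside 19.5% and 22.1%, 12.9% and 17.0%, 5.00% and 6.19%, and 0.472% and 0.830% of all genes. The Na+/K+ pump beta subunits ATP1B1 (-1.33 ± 0.14, adjusted p = 3.31e-06) and ATP1B3 (-1.05 ± 0.14, adjusted p = 3.02e-05) were lower with endo-EF, as was the pump regulator FXYD5 (-2.74 ± 0.27, adjusted p = 1.39e-06). CNTNAP2, which clusters KCNA channels at axons, rose from 1.82 ± 0.870 CPM in iEF (mean ± SD, n = 3) to 90.6 ± 12.6 CPM with endo-EF (5.86 ± 0.57, adjusted p = 1.04e-06) and to 70.0 ± 38.9 CPM with WT-EF (5.21 ± 0.56, adjusted p = 6.41e-06). It was at 12.2 ± 6.58 CPM with DAF (2.65 ± 0.54, adjusted p = 0.00511) and 8.58 ± 6.64 CPM with Δ22 (2.05 ± 0.54, adjusted p = 0.0825), and DAF against Δ22 gave 0.61 ± 0.47 (adjusted p = 0.760), with overlapping libraries. ADAM22, another KCNA partner at axons and synapses, rose with endo-EF (2.14 ± 0.19, adjusted p = 4.54e-07) and WT-EF (1.44 ± 0.19, adjusted p = 4.22e-05). The K+-Cl- cotransporter gene SLC12A4 fell with endo-EF (-1.10 ± 0.10, adjusted p = 5.11e-07) and with DAF (-0.53 ± 0.10, adjusted p = 0.00305). REST, a repressor of neuronal genes, was lower with endo-EF (-0.62 ± 0.09, adjusted p = 3.63e-05) and higher with DAF (0.39 ± 0.09, adjusted p = 0.00875).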

How the data were processed

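RNA-seq libraries of A673 cells (15 libraries in 5 conditions) were made with a ScriptSeq kit. The deposited gene counts were made by the authors by aligning reads to hg19 with STAR (version 2.5.1b per the submitters' processing notes) and counting with htseq-count in intersection-strict mode, with a strand setting not given in the sources used here. The authors also deposited estimated counts, the same counts after ComBat adjustment of replicate sets, which hold 27002 genes and 72 of the potassium channel genes. These were rounded and used in an alternative. A deposited table of the authors' own fold changes and p-values was not used, nor were 3 columns of other samples.

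Genes averaging at least 1 count were fitted with edgeR 4.0.16 in R 4.3.3 (TMM factors, quasi-likelihood F-test, condition plus replicate set, all 15 libraries), and p-values were adjusted over all 28793 genes by Benjamini-Hochberg with a threshold of 0.05. The replicate term follows the study's adjustment of replicate sets. Alternatives used DESeq2 1.42.0, other filters, no replicate term, 6 libraries only, and leaving out libraries. Exact intervals (95%) used scipy 1.17.1 in Python 3.11.15, and bounds used a floor of 3 counts per library. Both cover counting error only, since the libraries carry no molecular identifiers. Library totals of 28659475 to 41859880 counts limit the precision of the 32 members that averaged under 10 counts. Coordinates are GENCODE v44 on GRCh37.

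Genes were named by rule: FLI1, up to 25 members per comparison that passed the threshold and averaged at least 50 counts, the leading gene of each subfamily, and called genes of the K+ handling list. Naming members under 50 counts, and comparisons that were not called, was decided with their values in view. The members and lists were chosen with earlier results of these data known. On simulated counts for WT-EF against iEF (28242 genes), the fit found 200 of 200 changed genes with 7 false calls and a median log2 fold change of 1.97 for a simulated 2. The changed genes were drawn only from those averaging at least 50 counts, with a fixed spread and no replicate effect. The simulation therefore does not show how well the fit finds smaller changes or changes in rarer members. Replicates of each condition differed beyond sampling noise in a chi-square test over genes (15.1 to 98.8 per gene, over 15 pairs), so none was counted as a repeat of another. Some genes are not reported here.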

Additional observations from a re-analysis of the deposited data

Results flagged for a closer look

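KCNMB4, a beta subunit of the BK channel, was called in opposite directions against iEF with endo-EF (log2 fold change -0.55) and with WT-EF (0.61). Both of these calls were lost in some alternatives, as given above, and the libraries of WT-EF and iEF overlapped. The direct comparison of WT-EF with iLuc gave 1.15 (edgeR, adjusted p = 6.47e-04), higher in 3 of 3 replicate sets.

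KCNK3, an acid-sensitive leak channel, fell with endo-EF (-4.83) and WT-EF (-2.42) and rose with DAF (1.39) against the same iEF libraries. The rise with DAF was lost in some alternatives, as given above. The difference between WT-EF and DAF was tested directly and was -3.81 (edgeR, adjusted p = 2.95e-05), while the difference between endo-EF and DAF was not tested.

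KCNMB2, another BK beta subunit, was lower with endo-EF than in iEF (-1.99) and higher with Δ22 (1.84) and DAF (2.63). The Δ22 call was lost in some alternatives, as given above. The differences between endo-EF and either construct were not tested.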

How the results depend on the processing

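The 158 calls on potassium channel genes were recomputed under the 22 to 26 of 26 alternatives in which the gene was tested: 81 held in each of these, 77 were lost in at least 1, and 0 changed direction. Counts of members moved by over 1.5 times as follows. For Δ22 against iEF, higher calls (2 as reported) were 6 with no filter on low counts, and lower calls (0) were 2 with no filter and 1 with DESeq2. For DAF against iEF, lower calls (5) were 3 with DESeq2 on ComBat-adjusted counts and 3 with a filter of 10 counts. For DAF against Δ22, higher calls (2) were 4 with DESeq2, 4 on ComBat-adjusted counts, 8 with no filter and 12 with 6 libraries only, and lower calls (1) were 3 with no filter and 5 with 6 libraries only. The cause of these shifts was not tested.

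Leaving out libraries gave 15 to 26 higher calls for WT-EF against iEF, 0 to 3 higher and 0 to 1 lower for Δ22, 8 to 16 higher and 1 to 6 lower for DAF, 3 to 11 lower for WT-EF against iLuc, 7 to 14 higher for WT-EF against DAF, and 0 to 4 higher and 0 to 3 lower for DAF against Δ22.

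With no replicate block, calls were 1 higher for Δ22, 2 lower for DAF, and 0 higher and 0 lower for DAF against Δ22, while the counts of the other comparisons stayed within 1.5 times. Deviations of libraries with the same replicate number correlated with a median r of 0.185 (30 pairs, -0.183 to 0.780, 21 over 0.1), and those with other numbers with -0.0842 (60 pairs, 6 over 0.1), over 13178 genes. Deviations were taken from the mean of each condition, so a positive value for the same number pushes the other below 0. The negative median is therefore not separate evidence for replicate sets. The block was kept because the study adjusts replicate sets for batch.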
